A study of Homo sapiens with 16 samples.

Results

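The genes described here are 10 secreted signals by which epithelial cells address immune cells. They are the neutrophil-attracting chemokines CXCL1, CXCL2, CXCL3 and CXCL8, the chemokine CCL20, the interleukin-1 agonists IL1A and IL1B with their antagonist IL1RN, and the cytokines IL6 and LIF. They were taken by symbol from the deposited table, where all 10 were among the 26229 listed genes, and the choice of these genes was made with earlier results of these data known.

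Sequenced RNA came from the epidermoid carcinoma line A431 and the immortalised keratinocyte line HaCaT, to ask which transcripts depend on the transcriptional co-activator YAP. For each line there was 1 library from cells given a control siRNA and no vector (siCTRL), 3 from cells given siRNA against YAP1 and no vector (siYAP), 1 from cells with an empty expression vector and no siRNA, and 3 from cells with a vector for YAP1 S5A, a constitutively active mutant, and no siRNA (YAP5SA). These 16 libraries form 8 groups, all grown in DMEM with FCS, and siRNA was given in rounds 24 h apart, with the analysis 48 h after the second. Each control group is a single library, so its spread could not be measured. The labels do not say whether the triplicates were separate cultures, whereas the study's methods call them biological, and p values measure the spread between these libraries only. The promoter of the vector and the share of cells carrying it are not given in the sources used here. Endogenous and mutant YAP1 transcripts are counted together.

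The CXC chemokines carry an ELR motif ahead of their paired cysteines and bind CXCR2 on neutrophils, and CXCL8 also binds CXCR1. CCL20 binds CCR6 on dendritic cells and lymphocytes. IL1A and IL1B both signal through the receptor IL1R1, which IL1RN occupies without signalling, and keratinocytes are known to store IL1A and release it on injury. IL6 and LIF belong to the cytokines that signal through IL6ST and STAT3. Many genes of this group are classical targets of NF-kB and AP-1, and their transcripts are short-lived.

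Promoters are shown first for the 7 members with a match to one of 4 motifs, those of NF-kB, AP-1 and TEAD, in the bases printed, so that the values given later can be read against them. RefSeq windows (GRCh38.p14) that run from 250 bases before a gene's start to 50 bases after it matched 9 of the 10 members, all but LIF. Where a gene has several annotated starts, the start with the most matches in the bases to be printed was used. The 150 bases just before the start are printed 5′ to 3′ on the gene's own strand, at chr4:73869243-73869392 (plus) for CXCL1, chr4:74099196-74099345 (minus) for CXCL2, chr4:74038690-74038839 (minus) for CXCL3, chr4:73740419-73740568 (plus) for CXCL8, chr7:22727050-22727199 (plus) for IL6, chr2:227813692-227813841 (plus) for CCL20 and chr2:112784401-112784550 (minus) for IL1A. Capitals mark matches to the letters GGAATTTCC, to the NF-kB consensus, to the AP-1 motif TGANTCA and to the TEAD motif GGAATG, TEAD being the factor through which YAP binds DNA, each searched on both strands.
CXCL1: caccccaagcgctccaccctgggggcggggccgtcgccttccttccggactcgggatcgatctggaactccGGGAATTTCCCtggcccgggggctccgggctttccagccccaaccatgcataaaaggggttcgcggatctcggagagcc
CXCL2: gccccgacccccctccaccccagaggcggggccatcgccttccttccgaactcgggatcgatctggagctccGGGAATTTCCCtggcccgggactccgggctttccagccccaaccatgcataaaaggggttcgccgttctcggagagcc
CXCL3: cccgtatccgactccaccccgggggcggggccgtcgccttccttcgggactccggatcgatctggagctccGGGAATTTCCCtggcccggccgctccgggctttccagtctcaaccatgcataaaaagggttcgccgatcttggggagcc
CXCL8: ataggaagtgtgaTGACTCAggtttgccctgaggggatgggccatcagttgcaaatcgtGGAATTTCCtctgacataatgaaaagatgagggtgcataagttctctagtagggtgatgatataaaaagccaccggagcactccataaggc
IL6: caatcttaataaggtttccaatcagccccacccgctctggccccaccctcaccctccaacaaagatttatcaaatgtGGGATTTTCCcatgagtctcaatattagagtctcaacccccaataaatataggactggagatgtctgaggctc
CCL20: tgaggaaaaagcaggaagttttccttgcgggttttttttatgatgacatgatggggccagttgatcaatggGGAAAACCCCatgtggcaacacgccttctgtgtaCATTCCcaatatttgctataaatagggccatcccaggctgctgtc
IL1A: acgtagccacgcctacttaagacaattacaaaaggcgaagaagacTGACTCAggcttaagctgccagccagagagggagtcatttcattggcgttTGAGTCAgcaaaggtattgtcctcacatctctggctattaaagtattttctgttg

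GGAATTTCC was found in all 4 CXC windows, at 78 bases before the start in CXCL1 and CXCL3, 77 in CXCL2 and 91 in CXCL8, and in no other member. Of the 35116 RefSeq windows of the same length, 162 or 0.461% held it. The NF-kB consensus was matched in 5 members, CXCL1, CXCL2, CXCL3, CCL20 and IL6, where 11.3% of all windows held it, and in CXCL1, CXCL2 and CXCL3 this match overlaps GGAATTTCC. TGANTCA was matched in CXCL8, IL1A and IL1RN, where 7.71% of all windows held it. In IL1A its matches begin 105 and 55 bases before the start used for the printed bases. From another annotated start of IL1A, whose window is not printed, the same sites begin 12 bases before and 38 bases after. In IL1RN TGANTCA lies 223 bases before an annotated start. GGAATG was found in CCL20 alone, against 14.03% of all windows, and IL1B matched none of these motifs. TATAAA, also searched and not capitalised, was matched in CXCL8, CCL20, IL1A and IL1RN, where 11.5% of all windows held it. In IL1A its match begins 239 bases before the start that was not used, outside the printed bases. In IL1RN its matches begin 30 and 32 bases before another annotated start, whose window is not printed. A member counted as matched if any of its windows matched, and IL1A and IL1RN have several, whereas the shares are per window. These are matches of letters in short windows, and no binding was measured.

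CXCL1, CXCL2 and CXCL3 lie close together on chromosome 4 and are near copies, so reads can be shared between them. Over the whole window CXCL1 and CXCL3 were 82.5% identical, CXCL2 and CXCL3 73.8% and CXCL1 and CXCL2 71.9%, whereas each was 45.2% to 47.9% identical to CXCL8. At the trimmed read length of 75 bases, 3 of the 1023 stretches of the CXCL1 transcript (GENCODE v29) were found unchanged in another of the 4, or 0.293%. The share was 2.27% for CXCL2, 2.30% for CXCL3 and 0% for CXCL8, so the split between the first 3 is least certain for the low counts of CXCL2 and CXCL3.

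Library totals ran from 18115624 to 46791673 estimated read pairs. Values are given as CPM, counts scaled to library size with TMM factors, and a count of 0 allows up to 3 counts, or 0.0631 to 0.164 CPM. YAP1 in siYAP libraries was 5.04 to 6.9985 CPM in A431 cells, where siCTRL had 94.3 CPM, and 21.6 to 23.2 CPM in HaCaT cells, where siCTRL had 254 CPM, whereas YAP5SA brought it to 1495 to 3246 CPM against 124 CPM and to 7549.5 to 22255 CPM against 423 CPM. All 7 keratinocyte markers were above the 3-count limit in every group. Of the leukocyte markers, MS4A1 was at 0 in every library, PTPRC, the common leukocyte antigen, was at most 0.255 CPM, and CD68 was the most abundant, with 82.1 to 169.8 CPM in A431 and 8.16 to 32.5 CPM in HaCaT cells. The summed keratinocyte markers lay between 1752 and 2463 CPM in the 4 HaCaT libraries with siRNA and between 4234 and 7397 CPM in the 4 with vector, and in A431 cells between 2835 and 3712 and between 4295 and 5051 CPM. The 7 fibroblast markers summed to 21.5 to 27.9 CPM with siRNA and to 0.669 to 1.90 CPM with vector in HaCaT cells, and to 10.2 to 14.8 and 2.45 to 5.47 CPM in A431 cells. The 5 endothelial markers summed to 16.02 to 59.2 and to 1.53 to 2.47 CPM in HaCaT cells, and to 18.4 to 33.8 and 3.88 to 5.92 CPM in A431 cells. DCN and CDH5 were chosen after their values were seen. DCN had 11.3 to 14.2 CPM with siRNA and at most 0.0765 CPM with vector in HaCaT cells, and CDH5 had 12.2 to 51.8 CPM and at most 0.995 CPM there and 15.8 to 31.1 and 1.12 to 2.43 CPM in A431 cells. In both lines the siRNA and the vector libraries thus differed in these markers as well, and their part in the values below was not tested.

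Among the neutrophil chemokines CXCL8 had the widest range in CPM. In A431 cells it stood at 77.9 CPM with siCTRL, at 103, 62.0 and 73.0 CPM with siYAP, at 7.48 CPM with the empty vector and at 26.1, 15.7 and 16.3 CPM with YAP5SA. In HaCaT cells it stood at 0.492 CPM with siCTRL, which is 9 counts, at 0.929, 1.21 and 0.859 CPM with siYAP, at 47.9 CPM with the empty vector and at 45.3, 81.1 and 47.2 CPM with YAP5SA. The siRNA libraries were thus the high ones in A431 cells and the low ones in HaCaT cells, with no overlap between the 4 siRNA and the 4 vector libraries of either line. The share of all tested genes without such overlap was not counted. For YAP5SA against siYAP, 34.6% of them were called in A431 and 60% in HaCaT cells.

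CXCL1 followed the same split. In A431 cells siCTRL gave 28.997 CPM and the siYAP libraries 18.7, 11.9 and 11.4 CPM, against 3.44 CPM with the empty vector and 10.8, 9.24 and 8.95 CPM with YAP5SA. In HaCaT cells siCTRL gave 1.37 CPM and the siYAP libraries 1.47, 2.24 and 1.19 CPM, against 38.1 CPM with the empty vector and 27.8, 22.5 and 23.8 CPM with YAP5SA. All 3 siYAP libraries of A431 cells lay below their control and all 3 YAP5SA libraries above theirs, whereas in HaCaT cells the YAP5SA libraries lay below the empty vector.

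CXCL2 and CXCL3 were scarce, with average abundances under the logCPM of 1 that a call required. CXCL2 had 1.18 CPM with siCTRL, 6.05, 2.41 and 3.25 CPM with siYAP, 0.551 CPM with the empty vector and 0.904, 1.59 and 1.47 CPM with YAP5SA in A431 cells. In HaCaT cells 1 count was found over the 4 siRNA libraries, 4 counts with the empty vector and 32, 13 and 31 counts with YAP5SA, or 0.820, 0.373 and 0.791 CPM. In that line only the YAP5SA libraries held more than 4 counts. CXCL3 lay between 0.597 and 1.45 CPM in all 8 A431 libraries. It had 1, 5, 0 and 2 counts in the HaCaT siRNA libraries, 2 with the empty vector and 21, 42 and 17 with YAP5SA, a ratio of 11.1 to the empty vector (95% counting interval 2.98 to 93.3).

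**Figure D1:**
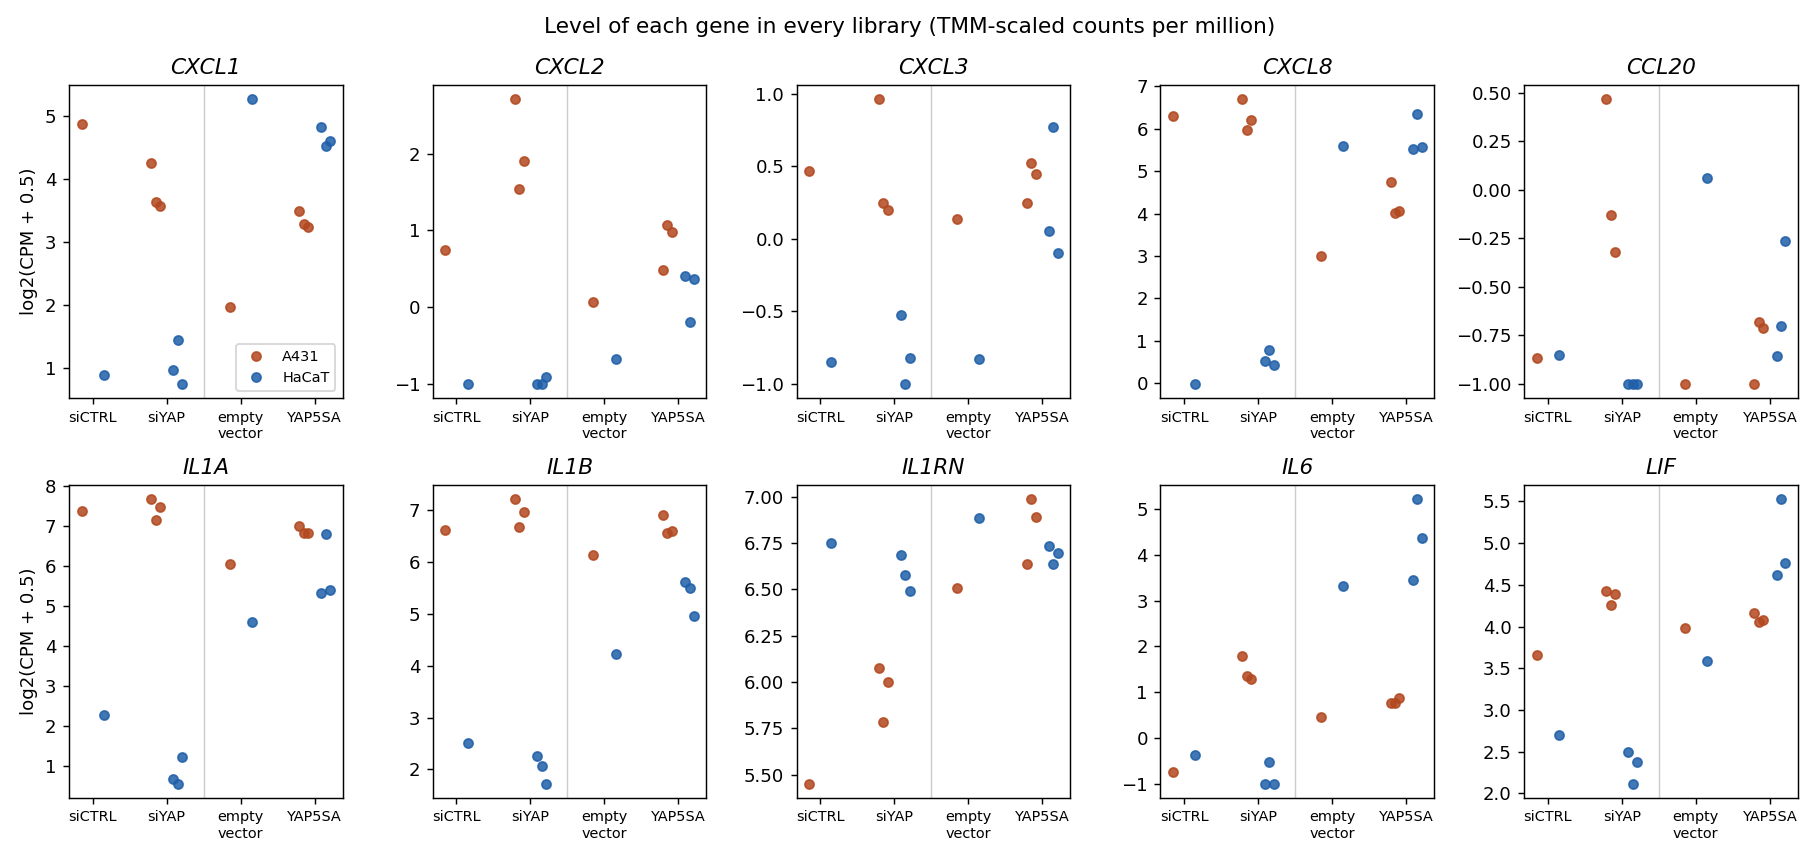
Level of each of the 10 genes as log2(CPM + 0.5) by treatment, with 1 point per library, A431 in brown and HaCaT in blue; the vertical line parts siRNA from vector libraries and each panel has its own scale. In HaCaT cells the siRNA and vector libraries stood apart for all genes shown but IL1RN, CXCL3 and CCL20. The share of all tested genes that stood apart was not counted, and 60% were called for YAP5SA against siYAP in that line.

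CCL20 was too scarce to be tested, since its mean was below 10 counts per library. The A431 siYAP libraries held 42, 12 and 6 counts against 1 with siCTRL, a ratio of 12.7 (95% counting interval 2.19 to 509), and the A431 vector libraries held 0 to 4. In HaCaT cells there was 1 count over the 4 siRNA libraries, 17 with the empty vector and 2, 4 and 13 with YAP5SA. The 42 counts, in the deepest library, are 0.883 CPM, the highest level of CCL20 in the series.

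The interleukin-1 agonists were abundant in A431 cells under every treatment. IL1A had 165 CPM with siCTRL, 205, 143 and 179.6 CPM with siYAP, 66.2 CPM with the empty vector and 128, 114 and 113 CPM with YAP5SA. IL1B had 97.8 CPM with siCTRL, 149, 101 and 125 CPM with siYAP, 70.1 CPM with the empty vector and 119.6, 94.1 and 96.8 CPM with YAP5SA. The empty vector library was the lowest of the 8 for both genes.

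In HaCaT cells both agonists were scarce with siRNA. IL1A stood at 4.37 CPM in the siCTRL library and at 1.08, 0.972 and 1.82 CPM in the siYAP libraries, against 23.9 CPM with the empty vector and 39.7, 112 and 41.6 CPM with YAP5SA. IL1B stood at 5.19 CPM in the siCTRL library and at 4.30, 3.69 and 2.81 CPM in the siYAP libraries, against 18.2 CPM with the empty vector and 48.7, 45.1 and 30.6 CPM with YAP5SA. All siYAP libraries lay below siCTRL and all YAP5SA libraries above the empty vector for both genes. Replicate 2 of YAP5SA, which also had the highest YAP1 level, stood apart for IL1A and not for IL1B.

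IL1RN, the antagonist, spanned a narrow range in HaCaT cells. Its 8 HaCaT libraries stayed between 89.6 and 118 CPM, with 107 CPM for siCTRL, 103, 94.955 and 89.6 CPM for siYAP, 118 CPM for the empty vector and 106, 99.1 and 103 CPM for YAP5SA. In A431 cells it had 43.3 CPM with siCTRL, 66.9, 54.5 and 63.5 CPM with siYAP, 90.4 CPM with the empty vector and 98.8, 126 and 118 CPM with YAP5SA, so that here the vector libraries were the high ones. For CXCL1 and CXCL8 the A431 vector libraries were the low ones.

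To compare antagonist with agonists within a library, CPM was divided by transcript length (1922 bases for IL1RN, 2124 for IL1A and 1631 for IL1B), and the level of IL1RN per kb was divided by the sum of IL1A and IL1B per kb. In HaCaT cells the ratio was 10.7 with siCTRL, 17.0, 18.2 and 18.1 with siYAP, 2.73 with the empty vector and 1.14, 0.643 and 1.40 with YAP5SA. In A431 cells it was 0.164 with siCTRL, 0.185, 0.219 and 0.205 with siYAP, 0.635 with the empty vector and 0.384, 0.591 and 0.547 with YAP5SA. HaCaT transcripts of the antagonist outnumbered those of the agonists in 7 of 8 libraries, all but YAP5SA replicate 2, and A431 agonists outnumbered the antagonist in all 8. In both lines siYAP libraries lay above their control and YAP5SA libraries below theirs. Counts are per gene, so transcripts from the different annotated starts of IL1RN were pooled. These ratios are a description, and no test was run on them.

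**Figure D2:**
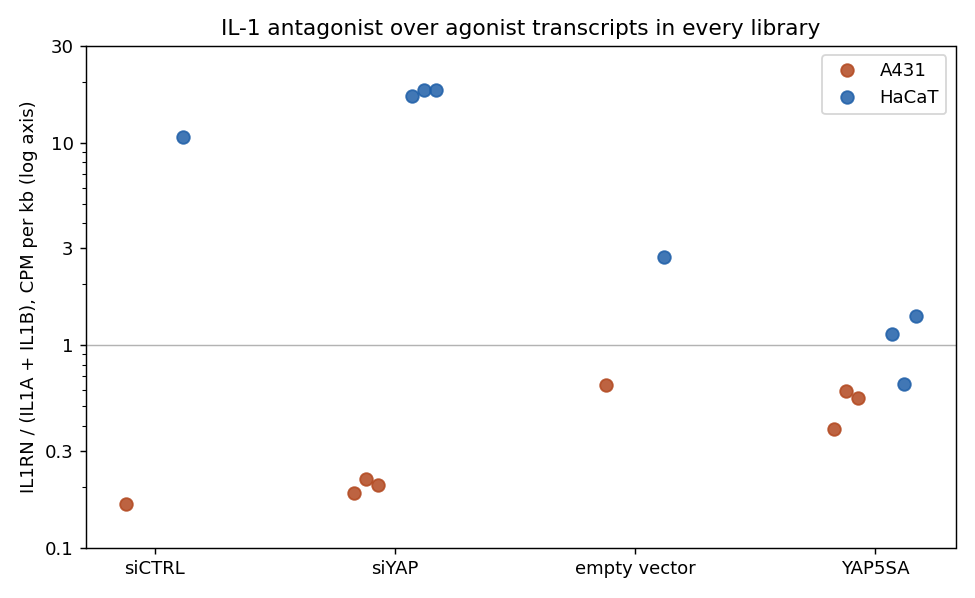
Ratio of IL1RN to the sum of IL1A and IL1B, each in CPM per kb of transcript, by treatment on a log axis, with 1 point per library, A431 in brown and HaCaT in blue, and a line at 1. HaCaT siRNA libraries lay between 10.7 and 18.2 and HaCaT vector libraries between 0.643 and 2.73, whereas A431 libraries stayed between 0.164 and 0.635.

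IL6 was near the detection limit in A431 siCTRL cells, with 2 counts or 0.0980 CPM. The 3 siYAP libraries of that line had 2.96, 2.03 and 1.95 CPM, the empty vector 0.872 CPM and the YAP5SA libraries 1.21, 1.19 and 1.33 CPM. The HaCaT libraries held 5 counts with siCTRL and 0, 4 and 0 counts with siYAP, against 9.46 CPM with the empty vector and 10.4, 36.8 and 20.3 CPM with YAP5SA. HaCaT vector libraries thus held the highest IL6 levels and HaCaT siRNA libraries some of the lowest.

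LIF was present throughout. In A431 cells it had 12.1 CPM with siCTRL, 20.9, 18.7 and 20.5 CPM with siYAP, 15.2 CPM with the empty vector and 17.5, 16.1 and 16.4 CPM with YAP5SA. The HaCaT libraries held 6.01 CPM with siCTRL, 5.15, 3.84 and 4.69 CPM with siYAP, 11.5 CPM with the empty vector and 24.1, 45.7 and 26.7 CPM with YAP5SA. The HaCaT YAP5SA libraries all lay above the highest A431 library. Replicate 2 was again the highest of its group, as it was for IL1A, IL6, CXCL8 and CXCL3. It was the lowest of the group for CXCL1, CXCL2 and IL1RN, and lay between the others for IL1B and CCL20.

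Counts were tested with the quasi-likelihood test of edgeR over 14673 genes, with false discovery rates (FDR) by the Benjamini-Hochberg method, and calls needed an FDR below 0.05 together with a logCPM over 1. Of the 10 members 9 were tested and 7 were above that logCPM. Since whole cultures were lysed, fewer expressing cells and less RNA per cell cannot be told apart in any of these comparisons.

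Loss of YAP1 was compared with the control siRNA first. In A431 cells siYAP raised 1 member, IL6, at 4.52 on the log2 scale (SE 1.19, edgeR FDR = 0.0437), while 1.81% of all tested genes were called higher and 3.78% lower. The 239 siYAP counts against 2 in the control give a ratio of 25.3 with a 95% counting interval of 6.92 to 209.8, and all 3 siYAP libraries lay above the control. The call of IL6 was lost without any one of the A431 siYAP libraries (FDR 0.0880 without replicate 1, 0.0637 without replicate 2 and 0.0799 without replicate 3), and also without A431 YAP5SA replicate 2 (0.0559) or 3 (0.0638), HaCaT siYAP replicate 1 (0.0531) or HaCaT YAP5SA replicate 3 (0.0585), all in edgeR. With siCTRL and the empty vector together as 2 controls IL6 had 2.24 (edgeR FDR = 0.369) and no member was called, and with each line fitted alone IL6 (4.51, edgeR FDR = 0.0105) fell under the logCPM limit. The summed leukocyte markers were 85.4 CPM with siCTRL and 118.8 to 124 CPM with siYAP, none of the 3 tested was called, and their part in the result was not tested. CXCL1 stood at -1.05 (SE 0.29, edgeR FDR = 0.0531), just short of a call, and DESeq2 put it at -1.04 with an FDR of 0.0173. Without A431 siYAP replicate 1, the deepest library of the group, its edgeR value was -1.33 (FDR 0.0238), and it also passed without A431 YAP5SA replicate 1 (0.0432), HaCaT siYAP replicate 2 (0.0407) or HaCaT YAP5SA replicate 1 (0.0433) or 2 (0.0427). IL1RN had 0.51 (SE 0.16, edgeR FDR = 0.0842) and LIF 0.73 (SE 0.31, edgeR FDR = 0.190), with all siYAP libraries above the control for both. IL1RN passed without A431 YAP5SA replicate 1 (edgeR FDR = 0.0391) and LIF without HaCaT YAP5SA replicate 2 (0.0360). CXCL8 at 0.03 (95% interval -0.75 to 0.81) and IL1A at 0.09 (-0.88 to 1.06) had siYAP libraries on both sides of the control. Over the 9 tested members the median log2 fold change was 0.36, and over all tested genes 0.03.

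In HaCaT cells siYAP changed no member past the threshold, where 2.36% of all tested genes were called higher and 3.3% lower. IL1A was the only one of the 9 with an unadjusted p under 0.05, DESeq2 called 0 and the likelihood ratio test of edgeR called 1, IL1A. Its value was -1.72 (SE 0.63, edgeR FDR = 0.133), with all 3 siYAP libraries below siCTRL, and without HaCaT YAP5SA replicate 2 it was -1.72 with an FDR of 0.00592. IL1B had -0.54 (95% interval -1.26 to 0.19), LIF -0.39 (-1.08 to 0.30) and IL1RN -0.17 (-0.50 to 0.17). CXCL1 had 0.23 and CXCL8 0.997, with 25 and 9 counts in the control and edgeR FDRs of 0.829 and 0.542. With 2 controls these turned to -3.62 (edgeR FDR = 0.0168) and -4.62 (0.0149), and 6 members were called, all lower, the others being IL1A, IL1B, IL6 and LIF at -3.44, -1.72, -6.42 and -0.95. The 9 members had a median of -0.17 against 0.03 for all tested genes.

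Active YAP5SA was then compared with the empty vector. In A431 cells no member was called, and neither was any other gene (0% of those tested), although 828 genes had an unadjusted p under 0.05 and DESeq2 called 3. YAP1 itself, at 4.36 (SE 0.65, edgeR FDR = 0.197), was not called either. The lack of calls here thus does not show a lack of response. Among the members 2 had an unadjusted p under 0.05, and DESeq2 and the likelihood ratio test of edgeR called 0. All 9 tested members had positive values, with a median of 0.56 against 0.02 over all tested genes. These 9 values share 1 empty vector library, the lowest A431 library for CXCL1, CXCL8, IL1A and IL1B, so they are not independent. The share of positive values over all tested genes was not counted. CXCL1 had 1.49 (SE 0.36, edgeR FDR = 0.803) and CXCL8 1.37 (SE 0.42, edgeR FDR = 0.803), with all 3 YAP5SA libraries above the empty vector for each. With 2 controls, the siCTRL library added, both turned, to -0.75 (edgeR FDR = 0.914) and -1.14 (0.907). IL1A had 0.84 (95% interval -0.18 to 1.86), IL1B 0.56 (-0.04 to 1.16), IL1RN 0.34 (SE 0.16) and LIF 0.13 (-0.52 to 0.77).

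In HaCaT cells YAP5SA raised 2 members, IL1B and LIF, where 7% of all tested genes were called higher and 6.64% lower. IL1B rose by 1.18 on the log2 scale (SE 0.29, edgeR FDR = 0.0212), or 2.27-fold, and LIF by 1.48 (SE 0.32, edgeR FDR = 0.0122), or 2.79-fold, with all 3 YAP5SA libraries above the empty vector for each. Both calls held without any single treated library, at edgeR FDRs of at most 0.0329 for IL1B and 0.0216 for LIF, and both were lost when each line was fitted alone (FDRs of 0.0599 and 0.0560). IL1A had 1.43 (SE 0.50, edgeR FDR = 0.0692), and its value was 0.77 with an FDR of 0.0447 without HaCaT YAP5SA replicate 2, and was 1.68 with an FDR of 0.0213 without replicate 1. CXCL3 at 3.42 (SE 1.17, edgeR FDR = 0.0660) and CXCL2 at 2.34 (SE 0.89, edgeR FDR = 0.0900) rest on 2 and 4 counts in the control. IL6 had 1.25 (SE 0.64, edgeR FDR = 0.195), CXCL8 0.27 (95% interval -0.52 to 1.06), IL1RN -0.20 (-0.53 to 0.13) and CXCL1 -0.62 (SE 0.29, edgeR FDR = 0.160). CXCL1 lay below the control in all 3 libraries, and with 2 controls its value turned to 0.32 (edgeR FDR = 0.837). Markers moved in this comparison too. Of the 10 leukocyte markers 3 were tested, and CD68 and LYZ, the gene of lysozyme, were called higher, CD68 with 11.5 CPM with the empty vector and 32.5, 21.6 and 22.2 CPM with YAP5SA and LYZ with 0.549 and 1.93, 2.34 and 1.61 CPM. Their list summed to 12.7 CPM with the empty vector and 24.6 to 35.7 CPM with YAP5SA, while PTPRC had 8 counts and 4, 0 and 4 counts. CDH5 was called higher, 1 of the 3 endothelial markers tested, and none of the 3 fibroblast markers tested was called. CDH5 was scarce here, with 4 counts or 0.127 CPM with the empty vector and 0.666, 0.316 and 0.995 CPM with YAP5SA. Its logCPM is an average over all libraries, of which those with siRNA held more. Of the 7 keratinocyte markers, all tested, 1 was called higher. The part of these markers in the rise of IL1B and LIF was not tested. The members' median was 1.25, against 0.01 for all tested genes.

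**Figure D3:**
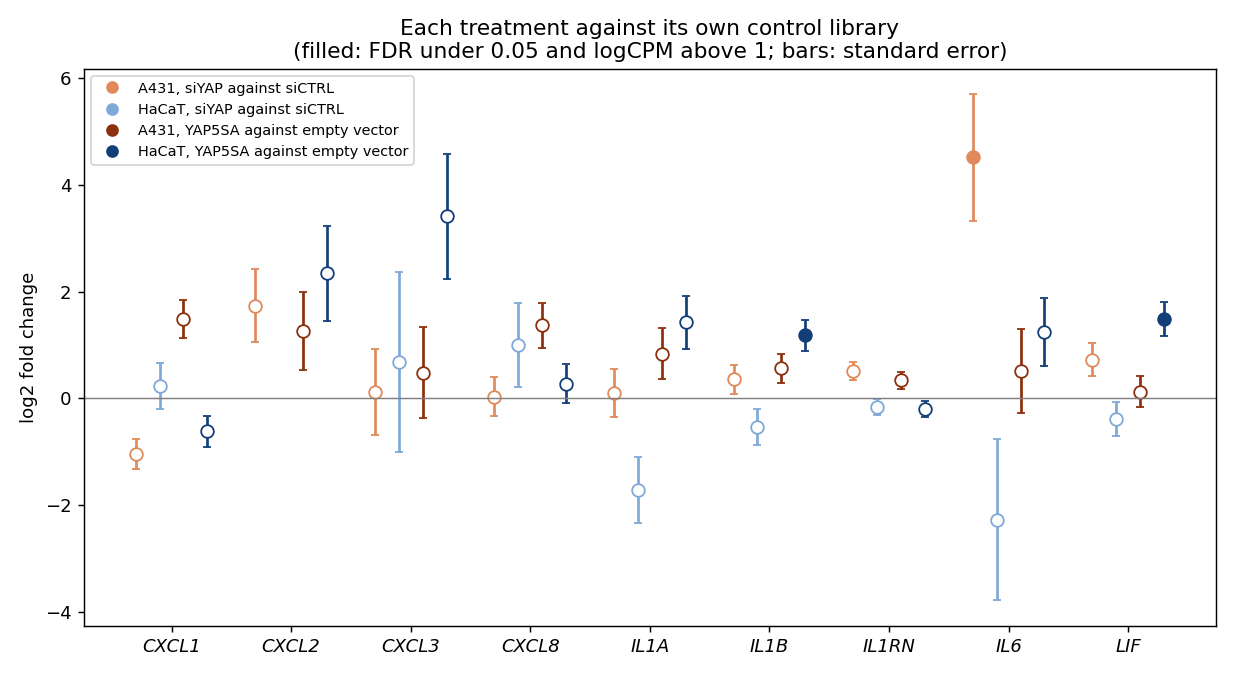
Log2 fold change of the 9 tested genes with each treatment against its own control library, with the standard error as bars and filled points for an edgeR FDR under 0.05 and a logCPM above 1. Only IL6 with siYAP in A431 cells and IL1B and LIF with YAP5SA in HaCaT cells are filled, and CXCL2 is left out for siYAP in HaCaT cells, where both groups were at or under 3 counts.

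Taking the mean of both lines, siYAP changed 0 of the 9 members, with none at an unadjusted p under 0.05 and 0 called by DESeq2, where 13% of all tested genes were called. YAP5SA raised 1, IL1B, by 0.87 (SE 0.20, edgeR FDR = 0.0458), where 2.04% were called. This call was lost without 8 of the 12 treated libraries, at edgeR FDRs of 0.0524 to 0.0832, namely all 6 siYAP libraries and A431 YAP5SA replicates 2 and 3. LIF at 0.80 (SE 0.22, edgeR FDR = 0.0699), IL1A at 1.13 (SE 0.34, 0.0917), CXCL8 at 0.82 (SE 0.28, 0.124), CXCL2 at 1.80 (SE 0.58, 0.104) and CXCL3 at 1.95 (SE 0.74, 0.157) had unadjusted p values under 0.05. LIF passed without HaCaT YAP5SA replicate 1 (edgeR FDR = 0.0187) or 2 (0.0341), and IL1A likewise (0.0271 and 0.0283).

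Whether the lines responded differently was tested as the effect in HaCaT minus that in A431 cells, and 0 members were called for either treatment, where 0.17% of all tested genes were called for siYAP and 0.0886% for YAP5SA. With siYAP 5 members had an unadjusted p under 0.05 and DESeq2 called 1. The differences were -6.80 for IL6 (SE 2.10, edgeR FDR = 0.228), -1.81 for IL1A (SE 0.78, 0.388), -1.12 for LIF (SE 0.44, 0.344), -0.68 for IL1RN (SE 0.22, 0.257) and 1.28 for CXCL1 (SE 0.52, 0.361). With YAP5SA 3 had an unadjusted p under 0.05 and DESeq2 called 2. They were CXCL1 at -2.11 (SE 0.46, edgeR FDR = 0.0574), LIF at 1.35 (SE 0.42, 0.102) and IL1RN at -0.54 (SE 0.22, 0.179). CXCL1 passed the threshold without A431 YAP5SA replicate 1 (-2.02, edgeR FDR = 0.0322) and without HaCaT YAP5SA replicate 1 (-2.20, 0.0319) or 2 (-2.04, 0.0412), and LIF without HaCaT YAP5SA replicate 1 (1.52, 0.0428).

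The control libraries of a line were also set against each other. They are single libraries, so the folds have no replicate check. In HaCaT cells the empty vector held 97.4 times as much CXCL8 as siCTRL, 34.6 times as much IL6, 27.9 times as much CXCL1, 5.47 times as much IL1A, 3.52 times as much IL1B and 1.92 times as much LIF. IL1RN differed by 1.10 times only. In A431 cells the difference ran the other way for the chemokines and agonists, with 10.4 times as much CXCL8 in siCTRL as with the empty vector, 8.42 times as much CXCL1, 2.49 times as much IL1A and 1.40 times as much IL1B. IL1RN, at 2.09 times, and LIF, at 1.26 times, were higher with the empty vector, as was IL6, with 19 counts against 2 (ratio 8.91, 95% counting interval 2.15 to 78.9). Of the 12243 genes with a logCPM above 1, 1009 or 8.24% differed more than 4-fold between the HaCaT controls and 66 or 0.539% between the A431 controls, on the CPM + 0.5 scale.

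**Figure D4:**
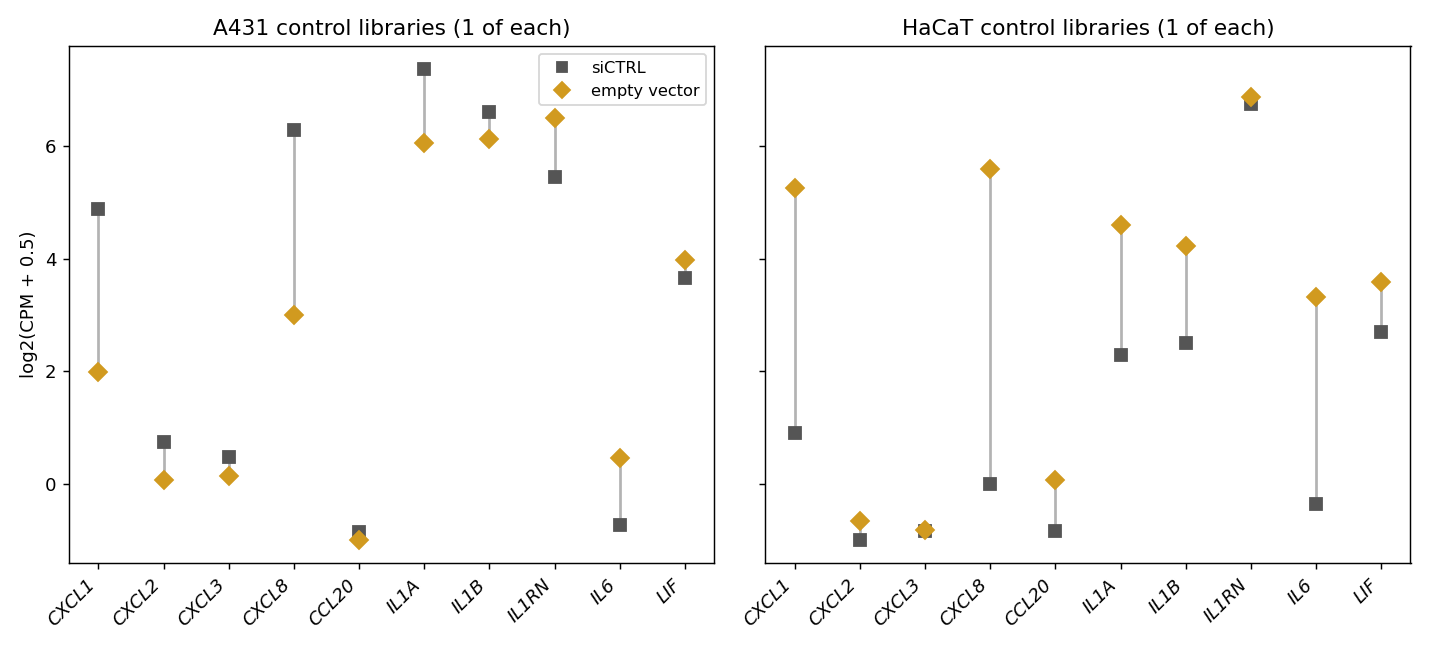
Level of each gene as log2(CPM + 0.5) in the 2 control libraries of A431 (left) and HaCaT cells (right), with siCTRL as squares, empty vector as diamonds and a line joining them. CXCL8 and CXCL1 lay 10.4-fold and 8.42-fold lower with the empty vector in A431 cells, and 97.4-fold and 27.9-fold higher in HaCaT cells.

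Setting YAP5SA against siYAP directly, 3 libraries against 3, therefore also sets vector against siRNA. The sources used here do not say whether the siRNA and the vector libraries of a line came from the same stock and passage of cells, and such a difference cannot be told apart from the treatment in these comparisons. In A431 cells it called 2 members, where 34.6% of all tested genes were called. CXCL8 was lower with YAP5SA, at -2.04 (SE 0.27, edgeR FDR = 0.000101) and IL1RN was higher by 0.89 (SE 0.11, edgeR FDR = 7.26e-05). In both the groups did not overlap, which was not counted over all tested genes. CXCL2 had -1.56 (SE 0.44, edgeR FDR = 0.0138), below the logCPM of a call. CXCL1 had -0.54 (SE 0.22, edgeR FDR = 0.0682) and IL1A -0.57 (SE 0.32, edgeR FDR = 0.172), of which CXCL1 passed without HaCaT siYAP replicate 2 (0.0484) and IL1A without HaCaT YAP5SA replicate 2 (0.00858). With each arm first set against its own control, an alternative chosen after the data were seen, CXCL8 was 1.34 (edgeR FDR = 0.188), IL1RN -0.17 (0.704) and CXCL1 2.53 (0.0256), so that each changed sign and only CXCL1 was called.

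In HaCaT cells 6 members were called, all higher with YAP5SA than with siYAP, where 60% of all tested genes were called. IL6 had 8.62 (SE 0.73), CXCL8 5.87 (SE 0.35), IL1A 5.60 (SE 0.43), CXCL1 3.95 (SE 0.26), IL1B 3.53 (SE 0.22) and LIF 2.81 (SE 0.23), with edgeR FDRs of 1.78e-08 to 3.11e-07. IL1RN had 0.10 (95% interval -0.13 to 0.34, edgeR FDR = 0.418). For IL6 the siYAP group held 4 counts in all. Against their own controls first, CXCL1 was -0.85 (edgeR FDR = 0.317), CXCL8 -0.72 (0.640) and IL6 3.52 (0.195), and 3 members were called.

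The lines were compared within siYAP and within YAP5SA libraries, where the same limit on the origin of the cells holds between the arms. With siYAP 7 members were called, where 58.6% of all tested genes were called. IL1A was lower in HaCaT cells by a log2 fold change of -7.05 (SE 0.45), CXCL8 by -6.33 (SE 0.35), IL6 by -5.36 (SE 0.78), IL1B by -5.13 (SE 0.24), CXCL1 by -3.13 (SE 0.25) and LIF by -2.13 (SE 0.22), with edgeR FDRs of 1.28e-09 to 4.38e-05. IL1RN was higher by 0.63 (SE 0.11, edgeR FDR = 0.000195). CXCL2 at -7.83 (SE 0.77, edgeR FDR = 1.12e-06) and CXCL3 at -3.34 (SE 0.72, 0.00112) passed the FDR and were below the logCPM of a call, an average over all libraries. The HaCaT siYAP libraries held 1 count of CXCL2 and 7 of CXCL3 in all. Groups did not overlap for any of the 7 members called. These were picked by the test, so this adds no support, and the share over all tested genes was not counted.

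With YAP5SA the order of the lines was different. Here 6 members were called, where 50.2% of all tested genes were called. IL6 was higher in HaCaT cells by 4.17 (SE 0.49, edgeR FDR = 1.08e-05), CXCL8 by 1.58 (SE 0.26, 0.000196), CXCL1 by 1.36 (SE 0.22, 0.000153) and LIF by 0.95 (SE 0.21, 0.00151). IL1B was lower by -1.32 (SE 0.19, edgeR FDR = 6.38e-05) and IL1A by -0.88 (SE 0.32, edgeR FDR = 0.0309). IL1RN had -0.16 (95% interval -0.39 to 0.08). The call of IL1A was lost without A431 siYAP replicate 1 (edgeR FDR = 0.05), without A431 YAP5SA replicate 1 (0.0725), 2 (0.0506) or 3 (0.0522) and without HaCaT YAP5SA replicate 1 (0.103) or 3 (0.122), and without HaCaT YAP5SA replicate 2 its value was -1.54 (1.27e-05). DESeq2 put it at -0.83 with an FDR of 0.0909, so that this call was lost there too.

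**Figure D5:**
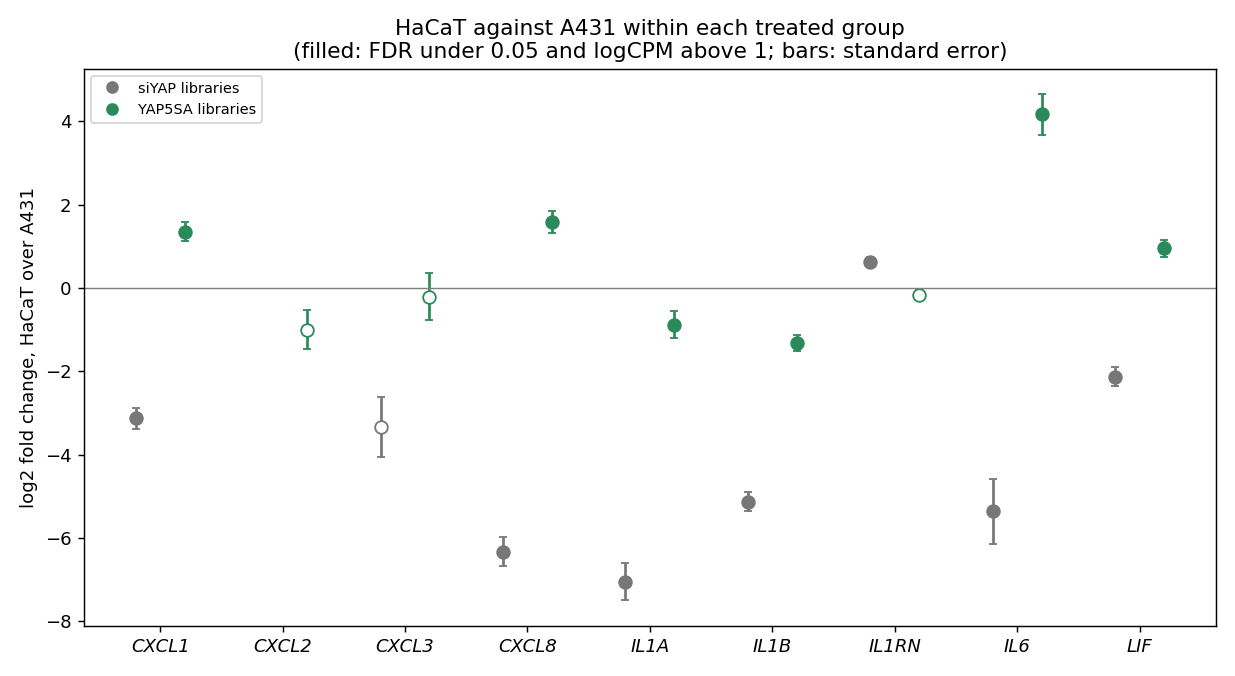
Log2 fold change of HaCaT over A431 cells for the 9 tested genes, within siYAP libraries in grey and within YAP5SA libraries in green, with the standard error as bars and filled points for an edgeR FDR under 0.05 and a logCPM above 1. CXCL1, CXCL8, IL6 and LIF lay below 0 with siYAP and above 0 with YAP5SA, and CXCL2 is left out for siYAP, where the HaCaT libraries held 1 count in all. CXCL1 and CXCL8, but not IL6 and LIF, also changed order between the siCTRL and the empty vector libraries, which are not shown here.

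Other genes of these pathways were counted in 7 lists written by hand, with 113 genes in all, of which 92 were tested. With siYAP in A431 cells 4.35% of the 92 were called higher and 3.26% lower, where 1.81% and 3.78% of all tested genes were. In HaCaT cells the shares were 1.09% and 2.17% with siYAP, against 2.36% and 3.3%, and 10.9% and 5.43% with YAP5SA, against 7% and 6.64%. With YAP5SA in A431 cells none was called, as over all genes. The median log2 fold change over the 92 genes was 0.05, -0.006, 0.27 and 0.01 in the same order, against 0.03, 0.03, 0.01 and 0.02 over all tested genes. The genes that follow were called for a treatment against its own control in 1 line. Of 14 further chemokines 8 were tested. CCL28, a mucosal chemokine, fell with siYAP in A431 cells by 2.81 on the log2 scale (SE 0.33, edgeR FDR = 0.000769), from 10.3 CPM to 1.37, 1.97 and 1.05 CPM, and CCL5, a T cell attractant, rose with YAP5SA in HaCaT cells by 1.21 (SE 0.38, edgeR FDR = 0.0474). Of 26 further cytokines 14 were tested. IL36RN, the antagonist of the IL-36 receptor, fell with siYAP in HaCaT cells by 1.93 (SE 0.47, edgeR FDR = 0.0285). With YAP5SA in HaCaT cells CSF2, which encodes GM-CSF, rose by 2.77 (SE 0.75, edgeR FDR = 0.0338), from 0.76 CPM to 3.05, 9.47 and 3.24 CPM, and IL15 fell by 1.07 (SE 0.32, edgeR FDR = 0.0407). No other gene of these 2 lists was called in such a comparison.

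Of 15 receptors 14 were tested. OSMR, the oncostatin M receptor, fell with siYAP in A431 cells by 0.61 (SE 0.16, edgeR FDR = 0.0433). With YAP5SA in HaCaT cells IL1RL1, the IL-33 receptor, rose by 2.48 (SE 0.67, edgeR FDR = 0.0279) and ACKR3, a scavenging chemokine receptor, fell by 1.23 (SE 0.36, edgeR FDR = 0.0369). Of 19 genes of IL-1 signalling and processing 18 were tested. CASP1, the protease that matures IL1B, fell in HaCaT cells with siYAP by 1 on the log2 scale (SE 0.23, edgeR FDR = 0.0219), from 15.5 CPM to 7.56, 9.06 and 6.67 CPM. It also fell there with YAP5SA by 1.25 (SE 0.21, edgeR FDR = 0.00535), from 53.9 CPM to 24.7, 21.5 and 21.7 CPM, so both treatments lay below their own controls. IRAK1 and TAB1, signalling components downstream of IL1R1, rose with YAP5SA in HaCaT cells by 0.93 (SE 0.27, edgeR FDR = 0.0371) and 0.77 (SE 0.24, 0.0461), and IRAK4, outside the naming rule and named after its value was seen, fell by 0.65 (SE 0.14, 0.0138). TAB2 fell with siYAP in A431 cells by 0.59 (SE 0.15, edgeR FDR = 0.0380).

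All 16 NF-kB factors and feedback genes were tested, and 3 were called for a treatment in 1 line, each higher with YAP5SA in HaCaT cells, where the list's median was 0.43. The factor RELA rose by 1.10 (SE 0.17, edgeR FDR = 0.00447), NFKB2 by 0.98 (SE 0.18, 0.00758) and the adhesion receptor ICAM1 by 1.14 (SE 0.25, 0.0125). RELA had 15.8 CPM with the empty vector and 33.1, 32.0 and 36.8 CPM with YAP5SA, against 29.01 CPM with siCTRL and 28.1 to 36.2 CPM with siYAP, so that the empty vector library was the low one of the 8. Of 13 genes of IL-6 family signalling 12 were tested. CEBPB rose with siYAP in A431 cells by 0.87 (SE 0.21, edgeR FDR = 0.0305) and in HaCaT cells by 1.09 (SE 0.24, 0.0163), PIM1 rose in A431 cells by 0.91 (SE 0.19, 0.0172), and JAK2 fell with YAP5SA in HaCaT cells by 0.87 (SE 0.26, 0.0390). Among 10 genes linked to cytokine mRNA decay, ZFP36, which binds AU-rich elements, and DUSP1, the phosphatase of p38, rose with siYAP in A431 cells by 1.13 (SE 0.28, edgeR FDR = 0.0356) and 1.90 (SE 0.40, 0.0157). They also rose with YAP5SA in HaCaT cells, by 1.39 (SE 0.31, edgeR FDR = 0.0130) and 1.31 (SE 0.38, 0.0360).

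Taking the mean of both lines, 12 genes of the lists were called with siYAP, 7 higher and 5 lower, or 7.61% and 5.43% of the 92, where 13% of all tested genes were called in either direction. Of these, 6 were not called in a line alone, and they are named after their values were seen. CXCL16, a membrane-bound chemokine, had -0.63 (SE 0.15, edgeR FDR = 0.0169), CSF1, the macrophage growth factor, -0.52 (SE 0.16, 0.0461), and IL7, a lymphocyte growth factor, 3.24 (SE 0.97, 0.0430). IRAK2 and NLRP1, of IL-1 signalling and processing, had 1.13 (SE 0.31, edgeR FDR = 0.0319) and 1.01 (SE 0.26, 0.0220), and the NF-kB factor REL 0.72 (SE 0.20, 0.0339). With YAP5SA 3 were called, where 2.04% of all tested genes were, namely CASP1 at -0.81 (SE 0.15, edgeR FDR = 0.0255), IRAK4 at -0.44 (SE 0.10, 0.0497) and RELA at 0.55 (SE 0.12, 0.0379). Of these 15 calls over both lines 6 held without any single treated library, CXCL16, CCL28, OSMR, NLRP1, PIM1 and CEBPB with siYAP, and 9 were lost without at least 1. With 2 controls 7 of the 15 held.

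Of the 25 calls in 1 line, 10 held in each of the 12 fits that left out 1 treated library and 15 were lost in at least 1. CCL28, IL1RL1, IRAK4, RELA, NFKB2, ICAM1, CASP1 with YAP5SA, CEBPB and ZFP36 in HaCaT cells and DUSP1 in A431 cells held throughout. PIM1 was lost without A431 siYAP replicate 3 alone (edgeR FDR = 0.0542) and CSF2 without A431 YAP5SA replicate 3 alone (0.0506). CASP1 with siYAP was lost without HaCaT siYAP replicate 1 (0.0582) or 3 (0.0671), and IL36RN without replicate 2 (0.0689) or 3 (0.0800) of that group. The others were lost in 3 to 9 of the fits, most often TAB1 (highest edgeR FDR 0.0895), CCL5 (0.0732), IL15 (0.0984), ACKR3 (0.0865) and JAK2 (0.0943). With siCTRL and the empty vector as 2 controls 11 of the 25 held, 13 were lost and TAB1 turned.

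Genes whose levels ran most like those of a member were found by Pearson's correlation of log2(CPM + 0.5), centred on the mean of each line, over the 16 libraries. The libraries of a group share their treatment, so these values are descriptions with no test. CXCL8 was most like GADD45A (0.974), TRMT11 (0.970) and RAB32 (0.967), and CXCL1 most like RABEP1 (0.958), C16orf87 (0.954) and KPNA1 (0.947). IL1A was most like TMEM206 (0.982), NUDCD1 (0.979) and PTRH2 (0.976). Among the genes most like IL1B were LPAR1 (0.976) and LRCH1 (0.970), and LIF was most like MFSD2A (0.980), ABL2 (0.971) and PDCD1LG2 (0.966). IL1RN had lower values, with KLK9 (0.904), RNF167 (0.884) and SOX15 (0.862) the closest.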

How the data were processed

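RNA from 16 libraries was sequenced in paired reads, which the authors trimmed to 75 bases and mapped to RefSeq gene models with RSEM (1.2.11 in the submitters' processing notes, build hg19). The deposited values are expected counts per gene, neither scaled nor filtered, with replicates kept apart. They were rounded to whole numbers, and 14673 genes, those averaging over 10 counts a library, were tested in 1 model of 8 groups with the quasi-likelihood test of edgeR 4.0.16 (limma 3.58.1, R 4.3.3), TMM factors and Benjamini-Hochberg adjustment over all of them. All groups shared 1 estimate of the spread, on 8 residual degrees of freedom, since control groups hold 1 library each. Libraries held 18115624 to 46791673 counts, and counting intervals and floors cover counting error only. The other intervals, those of log2 fold changes, were built from the SE and so include the spread between libraries. The SE of edgeR values was derived from the log2 fold change and the F statistic of the quasi-likelihood test. Alternatives were DESeq2 1.42.0, the likelihood ratio test, RLE size factors, other filters and thresholds, each line alone, both controls together, CXCL1, CXCL2 and CXCL3 summed, a replicate block and each treated library left out. The code was tested on simulated data. Deviations from the group means of the same-numbered YAP5SA libraries of both lines correlated at 0.398, 0.163 and 0.162, so these numbers were taken as pairs, although A431 replicate 2 correlated more with HaCaT replicate 3 (0.323). In every other set of groups at least 1 same-numbered pair was under 0.1, and the numbers named the libraries only. Named genes were the members, YAP1, at most 3 called genes per list and comparison with the largest fold change, and the 3 non-member genes most like each of 6 members. Some items that these rules name are not reported here. The members and lists were chosen with earlier results of these data known. Ratios, promoters and figures were made in Python 3.11.15 (Biopython 1.88, matplotlib 3.10.9).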

Additional observations from a re-analysis of the deposited data

How the results depend on the processing

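Most values kept their direction and their side of the threshold, and the cause of the changes that follow was not tested. With siCTRL and the empty vector of a line as 2 controls, CXCL1 turned to -3.62 for siYAP in HaCaT cells, -0.75 for YAP5SA in A431 cells and 0.32 in HaCaT cells, and to -3.41 and 1.06 for the differences between lines with siYAP and YAP5SA. CXCL8 turned to -4.62 for siYAP in HaCaT cells and -1.14 for YAP5SA in A431 cells, IL1RN to -0.12 for siYAP in A431 cells and TAB1 to -0.034 for YAP5SA in HaCaT cells. With each arm set against its own control first, an alternative added after the data were seen, YAP5SA against siYAP turned in A431 cells to 2.53 for CXCL1, 0.36 for CXCL3, 1.34 for CXCL8, 0.74 for IL1A, 0.21 for IL1B and -0.17 for IL1RN, and in HaCaT cells to -0.85 for CXCL1, -0.72 for CXCL8 and -0.031 for IL1RN.

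With 1 treated library left out, values on both sides of 0 were found for CXCL1 with siYAP in HaCaT cells (-0.042 to 0.42), CXCL3 with siYAP in A431 (-0.41 to 0.30) and HaCaT cells (-0.46 to 1.15), between lines with YAP5SA (-0.77 to 0.063) and for YAP5SA against siYAP in A431 cells (-0.38 to 0.31), CXCL8 with siYAP in A431 cells (-0.23 to 0.18) and YAP5SA in HaCaT cells (-0.049 to 0.42), and IL1A with siYAP in A431 cells (-0.052 to 0.22).

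The number of members called with siYAP in A431 cells was 1, against 3 by DESeq2, 2 by the likelihood ratio test, 0 with 2 controls and 0 to 3 with a library left out. With siYAP in HaCaT cells it was 0, against 1 by the likelihood ratio test, 6 with 2 controls and 0 to 1 with a library left out. With YAP5SA in HaCaT cells it was 2, against 0 with each line alone and 2 to 3 with a library left out. Over both lines siYAP gave 0, against 2 with 2 controls and 0 to 1 with a library left out, where HaCaT YAP5SA replicate 2 gave the 1. YAP5SA over both lines gave 1, against 3 by DESeq2 and by the likelihood ratio test, 0 with a log2 fold change of at least 1, 2 with 2 controls and 0 to 3 with a library left out. The difference between lines gave 0 with siYAP, against 1 by DESeq2 and by the likelihood ratio test. With YAP5SA it gave 0, against 2 by both, 1 with more than 10 counts in every library and 0 to 2 with a library left out. YAP5SA against siYAP gave 2 in A431 cells, against 1 with a log2 fold change of at least 1, 4 with each line alone and 1 with own controls first, and 6 in HaCaT cells, against 3 with own controls first.

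Only between the lines with YAP5SA were the replicate numbers taken to pair the libraries. Not every pair bore this out, since A431 replicate 2 correlated at 0.323 with HaCaT replicate 3 and at 0.163 with HaCaT replicate 2. A replicate block over the treated libraries left the counts at 7 and 6 between lines with siYAP and YAP5SA and at 2 and 6 for YAP5SA against siYAP in A431 and HaCaT cells. A replicate block over the 6 YAP5SA libraries alone, added after the data were seen, gave 6 as well, with IL1A at -1.01 (edgeR FDR = 0.0270), and neither block changed a member's call between lines with YAP5SA. Comparisons with a control library could not be blocked, since each control is 1 library.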
